A study of Mus musculus with 10 samples.

Results

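Genes of the endoplasmic reticulum (ER) folding machinery and of the unfolded protein response (UPR) were followed in 2 mouse melanoma lines given interferon gamma (IFN-γ). The set held 10 genes, taken by symbol from the 77175 entries of the count table: the lumenal chaperones Hspa5, Hsp90b1 and Hyou1, the disulfide isomerases Pdia4 and Pdia6, the co-chaperones Dnajb9 and Sdf2l1, the transcription factor gene Xbp1, and the ER-associated degradation (ERAD) genes Herpud1 and Edem1. Each symbol matched a single entry, and all 10 passed the filter on low counts. In the UPR, unfolded protein in the ER lumen activates the membrane sensors IRE1, PERK and ATF6. IRE1 splices Xbp1 mRNA and ATF6 is cut in the Golgi, which yields transcription factors that raise chaperone and ERAD genes, while PERK slows translation and favours translation of ATF4. Secretory cells and cells that make many membrane proteins, such as melanocytes with their melanosomal enzymes, depend on these chaperones for folding and export.

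The OVA cells were B16-F10-OVA, a derivative of the B16-F10 melanoma line carrying a lentiviral vector that expresses ovalbumin from the EF1A promoter together with a neomycin resistance marker. The WT cells were B16-F10 itself, for which the labels list no vector. Each line was given IFN-γ at 50 ng/ml for 24 h (n = 3 libraries a line) or left untreated (n = 2 libraries a line), and polyadenylated RNA was sequenced in bulk. The question set by the series is whether IFN-γ acts differently on OVA and WT cells. The labels do not say whether the OVA line is a single clone, or whether libraries came from separate cultures, so the spread between libraries may be technical.

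The 10 libraries held 17728722 to 19642533 counts each. Every melanocyte-lineage marker examined was expressed (Mitf, Tyr, Tyrp1, Dct, Pmel, Mlana and Sox10). Their summed level was 23708 to 24500 CPM (counts scaled to a common library size) in OVA cells with IFN-γ, 23948 to 24032 CPM in untreated OVA cells, 24102 to 24499 CPM in WT cells with IFN-γ, and 23096 to 23308 CPM in untreated WT cells. Of 21 markers of leukocytes, T cells, macrophages, fibroblasts, epithelial, endothelial and plasma cells, Ptprc, Cd3e, Epcam and Krt8 were at 0 in all libraries. The largest summed level of any of these lists was 5.04 CPM, for 4 macrophage markers in a WT library with IFN-γ. That list summed to 3.25 to 3.57 CPM in OVA cells with IFN-γ against 2.16 to 2.96 CPM in untreated OVA cells, and to 3.46 to 5.04 CPM in WT cells with IFN-γ against 2.37 to 3.25 CPM in untreated WT cells. The fibroblast list was lower with IFN-γ with no overlap of the groups, at 1.73 to 2.31 CPM in OVA cells with IFN-γ against 3.03 to 3.78 CPM in untreated OVA cells, and at 2.44 to 3.40 CPM in WT cells with IFN-γ against 4.25 to 4.43 CPM in untreated WT cells. The part of these small differences in the results was not tested.

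UPR transcription factors act through short promoter elements, and 4 of the genes carried an exact match to one within 250 bases upstream of the annotated start. The promoters of these 4 are shown because they hold the letters that ATF6 and XBP1 are known to act through. RefSeq promoter sequences (build GRCm38.p6) were matched by symbol for 9 of the 10 genes. Both strands were searched for the ER stress element (CCAAT, 9 bases, CCACG), for ER stress element II (ATTGG, 1 base, CCACG) and for the UPR element (TGACGTGG). Each of these elements holds the letters CCACG, the UPR element on its opposite strand. Matched element letters are in capitals, and each sequence runs 5′ to 3′ on the gene's strand and ends at the base before the start.
Hspa5, chr2:34771840-34772089, plus strand: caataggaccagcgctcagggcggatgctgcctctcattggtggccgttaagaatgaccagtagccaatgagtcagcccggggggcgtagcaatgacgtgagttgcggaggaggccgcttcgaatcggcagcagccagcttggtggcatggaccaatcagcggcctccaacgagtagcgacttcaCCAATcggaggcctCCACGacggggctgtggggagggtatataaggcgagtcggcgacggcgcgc
Hsp90b1, chr10:86705445-86705694, minus strand: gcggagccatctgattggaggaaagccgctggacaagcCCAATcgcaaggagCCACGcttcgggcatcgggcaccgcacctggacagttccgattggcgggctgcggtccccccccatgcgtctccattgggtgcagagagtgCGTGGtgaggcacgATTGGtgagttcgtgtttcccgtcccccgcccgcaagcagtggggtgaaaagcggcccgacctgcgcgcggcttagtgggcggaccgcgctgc
Pdia6, chr12:17266339-17266588, plus strand: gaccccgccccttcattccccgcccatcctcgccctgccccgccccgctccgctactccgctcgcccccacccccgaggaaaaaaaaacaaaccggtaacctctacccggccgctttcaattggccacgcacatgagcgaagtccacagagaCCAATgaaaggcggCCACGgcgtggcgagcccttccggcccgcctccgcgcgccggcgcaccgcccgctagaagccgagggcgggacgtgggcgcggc
Herpud1, chr8:94386179-94386428, plus strand: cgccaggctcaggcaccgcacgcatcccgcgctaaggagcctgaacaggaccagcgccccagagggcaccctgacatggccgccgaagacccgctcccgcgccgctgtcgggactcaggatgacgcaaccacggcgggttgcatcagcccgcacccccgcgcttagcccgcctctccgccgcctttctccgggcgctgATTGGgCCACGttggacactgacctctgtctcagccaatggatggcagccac
Hspa5 held 1 ER stress element, from 65 to 47 bases upstream, and Pdia6 held 1, from 98 to 80 bases upstream. Hsp90b1 held 2, from 212 to 194 bases upstream and, on the opposite strand, from 107 to 89 bases upstream. Herpud1 held 1 ER stress element II, from 52 to 42 bases upstream, and no UPR element was matched in any of the 9 windows. Over all 32851 RefSeq promoter windows of 300 bases, 0.119% held an ER stress element, 0.0365% an ER stress element II and 0.676% a UPR element. Only exact matches were counted, so an element with a differing letter was missed in any of these genes. Hspa5, for example, also holds CCAAT, 9 bases, CCAAC, which is left in lower case. The counted matches describe letters in a window and were not tested as binding sites.

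After 24 h of IFN-γ, 9 of the 10 genes were lower in OVA cells and 9 of 10 in WT cells, and none was higher. The falls were moderate. Herpud1, an ER membrane protein of the degradation machinery, fell the most, by 44.9% in OVA cells and by 44.8% in WT cells, and the chaperone Hyou1 fell by 35.4% in OVA cells and by 31.7% in WT cells. Dnajb9 was the gene that did not pass the test in either line. Differences were tested with edgeR's quasi-likelihood test, adjusted by Benjamini-Hochberg over all 15526 genes tested, and a gene was called at an adjusted p below 0.05. Of all genes tested, 22.9% were called lower and 25.9% higher in OVA cells, and 19.7% lower and 24.5% higher in WT cells. The median log2 fold change of the 10 genes was −0.41 in OVA cells and −0.33 in WT cells, against 0.0018 and 0.011 over all genes tested. The 10 genes were chosen with earlier results of these data known, so their distance from all genes is a description and was not tested. Bulk counts cannot tell less RNA per cell from fewer cells of a type.

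**Figure D1:**
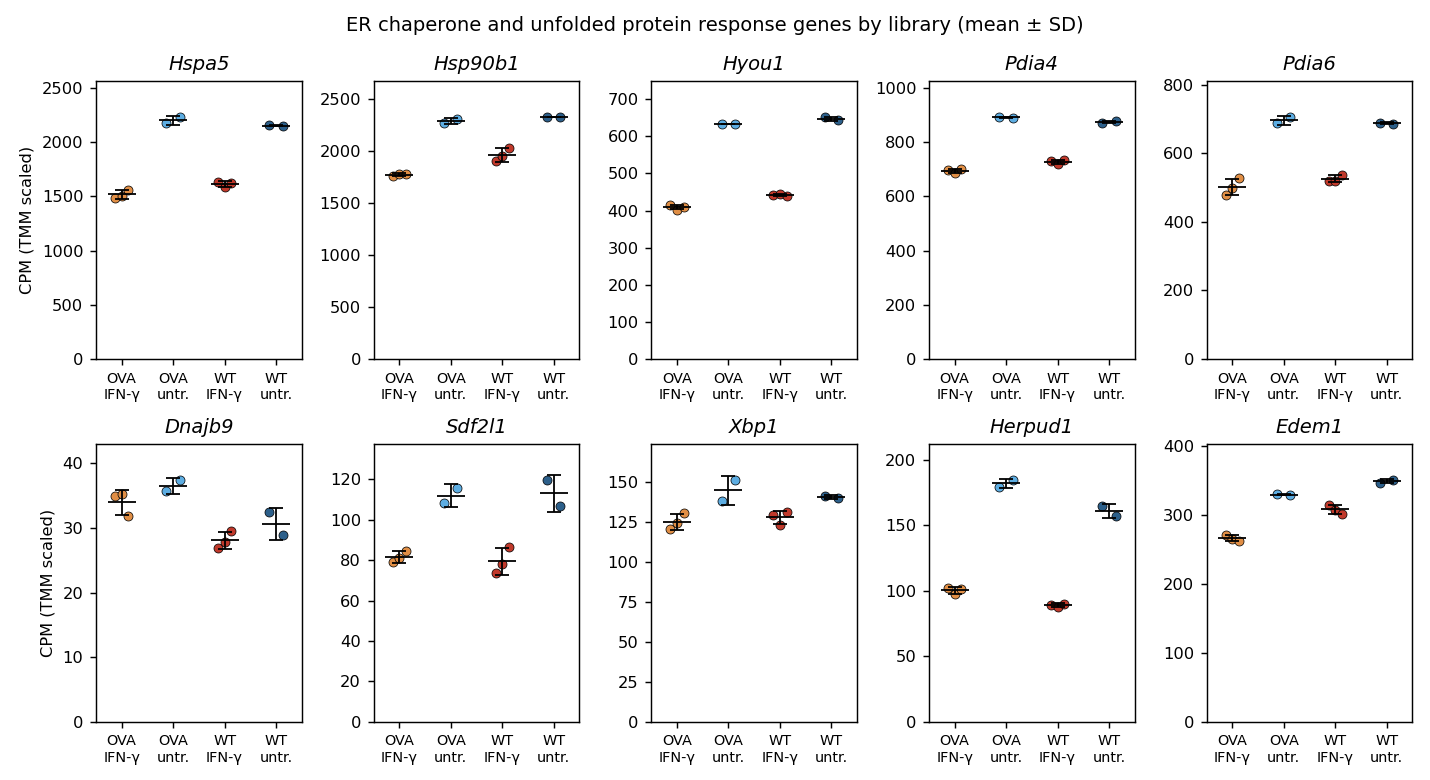
CPM (scaled by TMM factors, linear axes from 0) of the 10 genes in each library, with points for libraries and bars for the mean ± SD (n = 3 with IFN-γ, n = 2 untreated), in OVA and WT cells. All OVA libraries with IFN-γ lie below the untreated OVA libraries for each gene, and the same holds in WT cells for 9 genes, with Dnajb9 overlapping. Of all genes tested, 31.7% have that pattern in OVA cells and 29.0% in WT cells.

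Hspa5 encodes BiP, the HSP70 chaperone of the ER lumen that binds unfolded chains and holds the UPR sensors inactive. It had 1489.5, 1506 and 1563 CPM in OVA cells with IFN-γ, against 2175 and 2231 CPM in untreated OVA cells. WT cells had 1635, 1586 and 1628 CPM with IFN-γ, against 2156 and 2154 CPM untreated. The treated and untreated libraries did not overlap in either line. The log2 fold change was −0.54 (SE 0.027, adjusted p = 3.24e-11) in OVA cells and −0.41 (SE 0.027, adjusted p = 1.23e-09) in WT cells by edgeR.

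Hsp90b1 encodes GRP94, the HSP90 of the ER lumen, which folds integrins and Toll-like receptors. It had 1753, 1779.7 and 1775 CPM in OVA cells with IFN-γ, against 2268 and 2305 CPM in untreated OVA cells. The WT libraries held 1902, 1946 and 2029 CPM with IFN-γ, against 2321 and 2322 CPM untreated. Every treated library was below every untreated library, and the 3 OVA libraries with IFN-γ were the lowest of all 10. Hsp90b1 fell by 0.37 on the log2 scale in OVA cells (SE 0.027, adjusted p = 6.29e-09) and by 0.24 in WT cells (SE 0.027, adjusted p = 1.37e-06).

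Hyou1 encodes GRP170, a large HSP70-like chaperone that releases nucleotide from BiP. It had 415, 403 and 411 CPM in OVA cells with IFN-γ, against 633 and 634 CPM in untreated OVA cells. In WT cells it had 443, 444 and 439 CPM with IFN-γ, against 651 and 644 CPM untreated. The coefficient of variation within a group was at most 1.48%, and the groups were far apart. The log2 fold change was −0.63 in OVA cells (SE 0.026, adjusted p = 2.12e-12) and −0.55 in WT cells (SE 0.026, adjusted p = 1.51e-11), the largest fall among the 3 lumenal chaperones in both lines.

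Pdia4 and Pdia6 encode protein disulfide isomerases, which make and rearrange disulfide bonds in folding chains. Pdia4 had 696, 685 and 700.0 CPM in OVA cells with IFN-γ, against 892 and 891 CPM in untreated OVA cells. For WT cells the values were 731, 719 and 734 CPM with IFN-γ, against 871 and 877 CPM untreated. All treated libraries lay below all untreated ones, with a log2 fold change of −0.36 in OVA cells (SE 0.025, adjusted p = 2.89e-09) and −0.26 in WT cells (SE 0.025, adjusted p = 1.93e-07). Pdia6 is also known to bind IRE1 and to bear on how long its signal lasts. It had 479.7, 498 and 528 CPM in OVA cells with IFN-γ, against 687 and 705 CPM in untreated OVA cells, and 520.0, 521 and 537 CPM in WT cells with IFN-γ, against 689.8 and 687 CPM in untreated WT cells. Again no treated library reached an untreated one, and the log2 fold change was −0.47 in OVA cells (SE 0.035, adjusted p = 5.79e-09) and −0.39 in WT cells (SE 0.035, adjusted p = 8.01e-08).

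The co-chaperones divided. Sdf2l1, a lumenal protein that works with the J proteins of BiP, had 78.9, 80.9 and 84.5 CPM in OVA cells with IFN-γ, against 108 and 116 CPM in untreated OVA cells. WT cells had 73.5, 78.3 and 86.6 CPM with IFN-γ, against 119.6 and 107 CPM untreated. The groups did not overlap in either line, although WT libraries of each treatment varied by over 8% (8.39% with IFN-γ and 8.19% untreated, coefficients of variation). Sdf2l1 fell by 0.46 on the log2 scale in OVA cells (SE 0.061, adjusted p = 8.95e-06) and by 0.51 in WT cells (SE 0.061, adjusted p = 3.14e-06).

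Dnajb9 encodes ERdj4, a J protein that stimulates BiP, targets misfolded chains for degradation and represses IRE1, and it is a well known target of spliced XBP1. It had 35.0, 35.3 and 31.8 CPM in OVA cells with IFN-γ, against 35.7 and 37.4 CPM in untreated OVA cells. The WT values were 26.9, 27.8 and 29.5 CPM with IFN-γ, against 32.4 and 28.9 CPM untreated. The treated OVA libraries lay just below the untreated ones, while in WT cells the groups overlapped. Its log2 fold change of −0.10 in OVA cells (95% interval −0.24 to 0.031, adjusted p = 0.196) and −0.13 in WT cells (95% interval −0.27 to 0.017, adjusted p = 0.145) did not pass edgeR's test. The WT interval lies above the WT estimate for Hspa5 (−0.41). It takes in the WT estimates of Pdia4 (−0.26), Hsp90b1 (−0.24), Edem1 (−0.18) and Xbp1 (−0.14). The OVA interval lies above the OVA estimate for Hspa5 (−0.54) and takes in that of Xbp1 (−0.21). Dnajb9 was the least abundant of the 10 genes and had wider errors than the others, with an SE of 0.064 in OVA cells and 0.067 in WT cells. The SE of the more abundant Sdf2l1 was 0.061 in both lines.

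Xbp1, whose mRNA is the splicing substrate of IRE1, had a smaller estimated fall than the 3 lumenal chaperones in both lines. It had 121, 124 and 131 CPM in OVA cells with IFN-γ, against 138 and 151 CPM in untreated OVA cells. In WT cells it had 129, 123 and 131 CPM with IFN-γ, against 142 and 139.8 CPM untreated. The groups did not overlap, but the gap between them was narrow in both lines. Its log2 fold change was −0.21 in OVA cells (SE 0.044, adjusted p = 7.72e-04) and −0.14 in WT cells (SE 0.044, adjusted p = 0.0174). The WT call was lost without untreated WT replicate 1 (adjusted p = 0.116), without untreated WT replicate 2 (0.0695) and without treated WT replicate 2 (0.0706). Counts per gene do not separate spliced from unspliced Xbp1, so the activity of IRE1 was not measured.

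Herpud1 encodes HERP, a short-lived ER membrane protein that assembles the degradation complex around HRD1. It had 102, 97.6 and 102 CPM in OVA cells with IFN-γ, against 179.8 and 185 CPM in untreated OVA cells. WT libraries had 89.3, 87.4 and 90.2 CPM with IFN-γ, against 165 and 157 CPM untreated. The treated and untreated libraries were far apart, and the log2 fold change was −0.86 in OVA cells (SE 0.035, adjusted p = 1.86e-12) and −0.86 in WT cells (SE 0.036, adjusted p = 2.61e-12). It is the gene whose promoter above carries ER stress element II, and whether that element bears on the fall was not tested. Edem1 encodes a lectin-like protein that hands misfolded glycoproteins to the degradation machinery. It had 270.5, 265 and 262 CPM in OVA cells with IFN-γ, against 329.6 and 328 CPM in untreated OVA cells, and 315, 307 and 302 CPM in WT cells with IFN-γ, against 346 and 350.4 CPM in untreated WT cells. No libraries overlapped between treatments, and Edem1 fell by 0.31 on the log2 scale in OVA cells (SE 0.029, adjusted p = 1.64e-07) and by 0.18 in WT cells (SE 0.029, adjusted p = 8.71e-05). The ERAD pair thus held both the largest estimated fall of the set and one of the smaller ones.

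**Figure D2:**
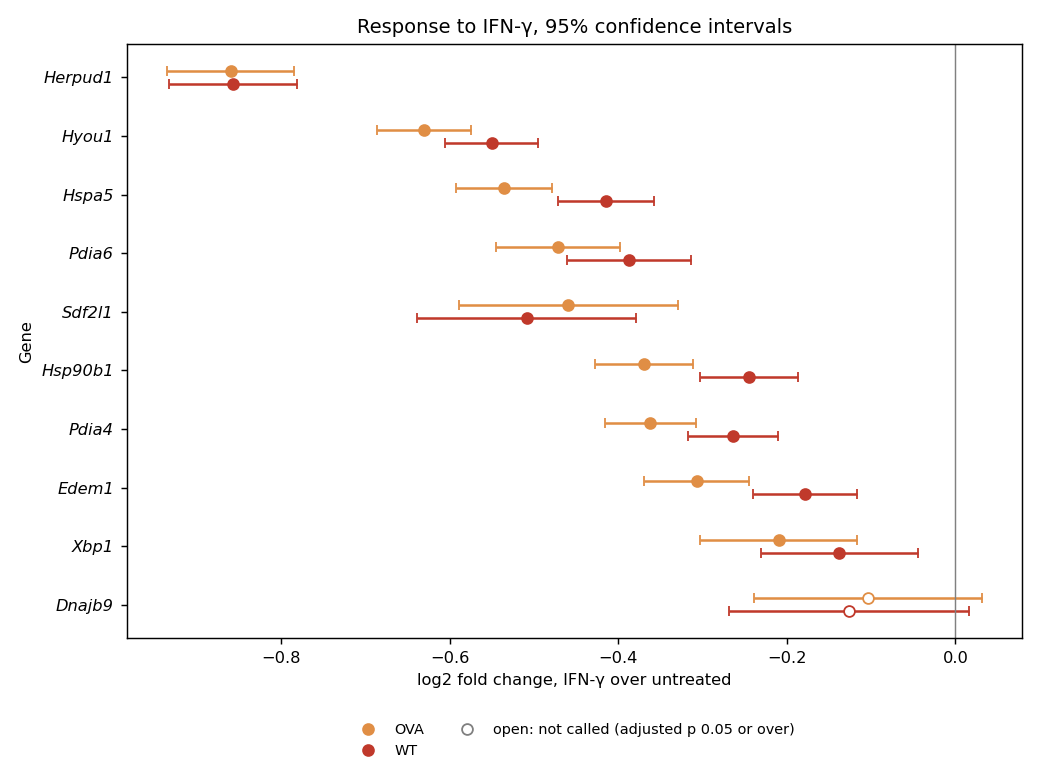
Log2 fold change, IFN-γ over untreated, with 95% confidence intervals, for the 10 genes in OVA cells (orange) and WT cells (red); open points were not called. Estimates run from −0.86 for Herpud1 to −0.10 for Dnajb9, and the OVA estimate is the lower of the pair in 8 genes.

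All libraries with IFN-γ lay below all untreated libraries for 10 of 10 genes in OVA cells and for 9 of 10 in WT cells. Over all genes tested, 31.7% had that pattern in OVA cells and 29.0% in WT cells. Together the 10 genes took 0.548%, 0.548% and 0.558% of all counts in OVA cells with IFN-γ, against 0.749% and 0.760% in untreated OVA cells. In WT cells they took 0.576%, 0.578% and 0.592% with IFN-γ, against 0.755% and 0.752% untreated. These shares use the plain totals and need no scaling factor, and were not tested. At a demand of at least 1.5-fold beside the adjusted p, the lower calls came down to Herpud1 and Hyou1 in OVA cells and to Herpud1 in WT cells.

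Levels differed widely among the genes. Per kilobase of exon (exon lengths from the GENCODE M21 annotation, an older build than that of the counts), untreated OVA cells had 567 ± 6.35 CPM per kb of Hsp90b1, 521 ± 9.37 of Hspa5, 372 ± 0.252 of Pdia4, 186 ± 3.41 of Pdia6 and 101 ± 5.04 of Sdf2l1 (SD, n = 2). Then came Hyou1 with 87.7 ± 0.0744, Herpud1 with 78.1 ± 1.51, Edem1 with 51.0 ± 0.127, Xbp1 with 44.6 ± 2.81 and Dnajb9 with 14.3 ± 0.491 CPM per kb. The order was the same in untreated WT cells, where Hsp90b1 reached 576 ± 0.182 CPM per kb and Dnajb9 12.0 ± 0.972. With IFN-γ the upper 6 kept their places in both lines. In treated WT cells Herpud1 dropped below Edem1 and Xbp1, with 38.1 ± 0.610 CPM per kb against 47.7 ± 1.02 and 39.4 ± 1.30 (SD, n = 3), and its gap to Xbp1 was within the sum of their SDs. In treated OVA cells Herpud1 had 43.0 ± 1.03 and Edem1 41.2 ± 0.662 CPM per kb. Other neighbours in each group were further apart than the sum of their SDs. Each length was the union of all annotated exons of the gene. The SDs cover the spread between libraries and no error of length, so the order depends on these lengths.

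The difference between the responses of the lines was tested as an interaction, OVA minus WT, and 0 of the 10 genes were called by edgeR. Among all genes tested, 0.264% were called lower and 0.0773% higher. Hspa5, Hsp90b1, Hyou1, Pdia4 and Edem1, 5 of the 10, had negative estimates with an unadjusted p below 0.05, and none of them passed the adjusted threshold (adjusted p 0.231 to 0.465). Of all genes tested, 7.15% had negative and 3.52% positive estimates at that unadjusted p. DESeq2, limma-voom and every other alternative run also called 0 of 10. The estimate was negative for 8 of the 10 genes, with a median of −0.082 on the log2 scale against −0.015 over all genes tested. The most negative were Edem1 at −0.13 (95% interval −0.22 to −0.041, adjusted p = 0.247), Hsp90b1 at −0.13 (−0.21 to −0.043, adjusted p = 0.231) and Hspa5 at −0.12 (−0.20 to −0.039, adjusted p = 0.241). Herpud1, which fell the most, had an estimate of −0.0028 (95% interval −0.11 to 0.11, adjusted p = 0.999). Sdf2l1 had the highest upper bound, with an estimate of 0.049 (−0.14 to 0.23).

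Between the lines themselves, Herpud1 and Dnajb9 were higher in OVA cells than in WT cells, both untreated and with IFN-γ. These comparisons share their libraries with the IFN-γ comparisons above and with the interaction, so they are not separate evidence. In untreated cells Herpud1 had 182 ± 3.53 CPM in OVA cells and 161 ± 5.63 CPM in WT cells (SD, n = 2 each), a log2 fold change of 0.18 (SE 0.038, adjusted p = 0.00955 by edgeR). That call was lost without untreated WT replicate 2 (adjusted p = 0.144) or without untreated OVA replicate 2 (0.118). Dnajb9 had 36.5 ± 1.25 CPM in untreated OVA cells and 30.7 ± 2.48 CPM in untreated WT cells, a log2 fold change of 0.25 (SE 0.071, adjusted p = 0.0481 by edgeR). It stood at the threshold: DESeq2 gave an adjusted p of 0.186 and limma-voom 0.0511, and leaving out single libraries gave values up to 0.361, reached without untreated WT replicate 2. These were the 2 of 10 genes called higher, against 2.98% of all genes tested, and 0 of 10 were called lower, against 2.55%. At an unadjusted p below 0.05 there were 3 of 10 genes between untreated lines, the third being Edem1 at −0.083 (adjusted p = 0.160, not called). Of all genes tested, 10.4% had positive and 8.11% negative estimates at that unadjusted p.

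With IFN-γ, 2 of 10 genes were higher and 4 of 10 lower in OVA cells than in WT cells, against 6.36% and 7.99% of all genes tested. Dnajb9 had 34.0 ± 1.93 CPM in treated OVA cells and 28.1 ± 1.33 CPM in treated WT cells (SD, n = 3 each), a log2 fold change of 0.28 (SE 0.059, adjusted p = 0.00492 by edgeR). Herpud1 had 100.4 ± 2.41 CPM in treated OVA cells and 89.0 ± 1.42 CPM in treated WT cells, a log2 fold change of 0.17 (SE 0.034, adjusted p = 0.00243). For these 2 of the 10 genes, every treated OVA library lay above every treated WT library. Of the 15526 genes tested, 2347 had that pattern. The reverse pattern, all treated OVA libraries below, held for 5 of the 10 genes, Pdia4 included, and for 2477 of all genes tested. Lower in treated OVA cells were Edem1 at −0.21 (adjusted p = 4.25e-05), Hsp90b1 at −0.15 (adjusted p = 7.24e-04), Hyou1 at −0.11 (adjusted p = 0.00496) and Hspa5 at −0.089 (adjusted p = 0.0215). The Hspa5 call was lost without treated WT replicate 1 (adjusted p = 0.0750), treated OVA replicate 1 (0.0810) or treated OVA replicate 2 (0.0937), and with library totals in place of scaling factors (0.0606). Pdia4 at −0.070 missed the threshold (adjusted p = 0.0516) and was called by DESeq2 (0.0393) and limma-voom (0.0279). Pdia6 at −0.067 (adjusted p = 0.171) was called without treated OVA replicate 3 (0.0364). Sdf2l1 and Xbp1 were not called between the lines in either state.

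**Figure D3:**
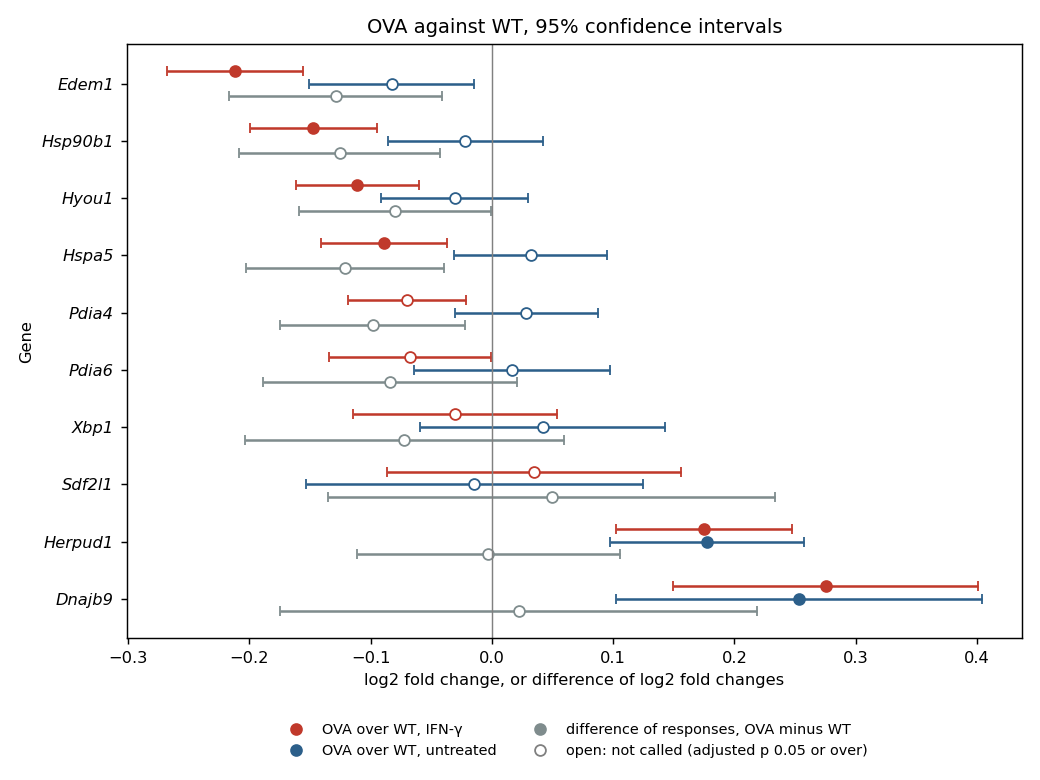
Log2 fold change of OVA over WT with IFN-γ (red) and untreated (blue), and the difference of the IFN-γ responses, OVA minus WT (grey), each with its 95% confidence interval; open points were not called. Dnajb9 and Herpud1 lie right of 0 in both states, Edem1, Hsp90b1, Hyou1 and Hspa5 lie left of 0 with IFN-γ, and all 10 grey points are open.

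Other genes of the ER folding machinery fell along with these chaperones. Of 22 further ER folding genes, 17 were lower and 4 higher with IFN-γ in OVA cells, and 16 were lower and 4 higher in WT cells, with median log2 fold changes of −0.30 and −0.20. The shares over all genes tested were 22.9% lower and 25.9% higher in OVA cells, and 19.7% lower and 24.5% higher in WT cells. The lectin chaperone Calr had 1134 ± 8.55 CPM in treated OVA cells against 1547 ± 33.2 in untreated OVA cells, and 1180 ± 11.1 CPM in treated WT cells against 1507 ± 27.6 in untreated WT cells (SD, n = 3 treated and 2 untreated). Its log2 fold change was −0.45 in OVA cells and −0.35 in WT cells, while its partner Canx fell by 0.33 and 0.27, and the thiol oxidase gene Ero1b by 0.86 and 0.64. Pdia3, the isomerase of the class I peptide loading complex, fell by 0.26 in OVA cells (adjusted p = 9.74e-07) and by 0.11 in WT cells (adjusted p = 0.00509), and the WT call was lost without untreated WT replicate 2 (0.0723). The 4 higher genes were Cnpy2, Sil1, Sdf2 and Fkbp14 in both lines. In WT cells DESeq2 called only Cnpy2 of these 4, at a log2 fold change of 0.31 by edgeR, and the edgeR adjusted p was 0.0452 for Sil1 and 0.0487 for Sdf2. The 16 lower calls in WT cells were 15 or 16 under every alternative run at the 0.05 threshold.

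ERAD and export genes were mixed. Of 17 tested ERAD genes beside Herpud1 and Edem1, 5 were higher and 5 lower in OVA cells, and 5 higher and 4 lower in WT cells, with medians of −0.0018 and 0.061. Over all genes tested, 25.9% were called higher and 22.9% lower in OVA cells, and 24.5% higher and 19.7% lower in WT cells. The ERAD counts were near these shares. The 4 lower calls in WT cells were 1 to 5 across the alternatives. Sel1l, the partner of the HRD1 ligase, fell by 0.43 in OVA cells and 0.30 in WT cells, and the ligase gene Syvn1 by 0.29 and 0.18, although the WT call of Syvn1 was lost without untreated WT replicate 1 (adjusted p = 0.0619). Herpud2, the paralog of Herpud1, rose by 0.25 in OVA cells (SE 0.048, adjusted p = 3.70e-04) and by 0.21 in WT cells (SE 0.047, adjusted p = 0.00138). The lectin gene Erlec1 rose by 0.36 and 0.26. Among 22 translocation and export genes, 6 were higher and 10 lower in each line. The signal peptidase subunit Spcs3 fell by 0.79 in OVA cells and by 0.63 in WT cells, and its companion Spcs1 rose by 0.44 and 0.33.

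The UPR sensor genes did not move together. Of 7 sensor and activator genes, 3 were higher and 2 lower in OVA cells, and 1 was higher and 2 lower in WT cells. Among all genes tested, 25.9% were higher and 22.9% lower in OVA cells, and 24.5% higher and 19.7% lower in WT cells. Eif2ak3, which encodes PERK, had 51.2 ± 2.54 CPM in treated OVA cells against 75.3 ± 0.791 in untreated OVA cells, and 52.5 ± 0.750 in treated WT cells against 76.6 ± 0.940 in untreated WT cells. It fell by 0.56 in OVA cells (adjusted p = 1.94e-08) and by 0.54 in WT cells (adjusted p = 2.50e-08), and Mbtps1, the protease that cuts ATF6, fell by 0.27 in both. Rtcb, the ligase that joins spliced Xbp1 mRNA, rose by 0.43 and 0.42. Ern1, which encodes IRE1, rose in OVA cells by 0.32 (adjusted p = 5.08e-04), and its WT estimate was 0.14 (adjusted p = 0.0740, and 0.0487 with no low count filter). Atf6 rose in OVA cells by 0.15 (adjusted p = 0.00207), with a WT estimate of 0.086 (adjusted p = 0.0612, and 0.0387 with the replicate block).

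Targets of the PERK and ATF4 arm moved both ways. Of 12 genes, 6 were higher and 3 lower in OVA cells, and 5 higher and 4 lower in WT cells. For this list and those below, the shares over all genes tested were 25.9% higher and 22.9% lower in OVA cells. In WT cells they were 24.5% higher and 19.7% lower. The transcription factor gene Atf3 had 47.2 ± 4.53 CPM in treated OVA cells against 9.04 ± 0.927 in untreated OVA cells, and 41.1 ± 0.324 in treated WT cells against 9.84 ± 0.607 in untreated WT cells, a rise of 2.39 and of 2.06 on the log2 scale. Atf4 itself fell by 0.13 in OVA cells (adjusted p = 0.00907, but 0.105 without untreated OVA replicate 2) and by 0.15 in WT cells (adjusted p = 0.00273). The interaction called 3 of the 12, Ddit3, Chac1 and Trib3, whose values are given in the closing section, and 0 in each of the other lists. These 3 were called higher, and of all genes tested the interaction called 0.0773% higher and 0.264% lower. Cytosolic heat shock genes had 2 higher and 2 lower of 11 tested in OVA cells, and 7 higher and 2 lower in WT cells, and the mitochondrial list had 7 higher and 1 lower of 8 in each line.

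**Figure D4:**
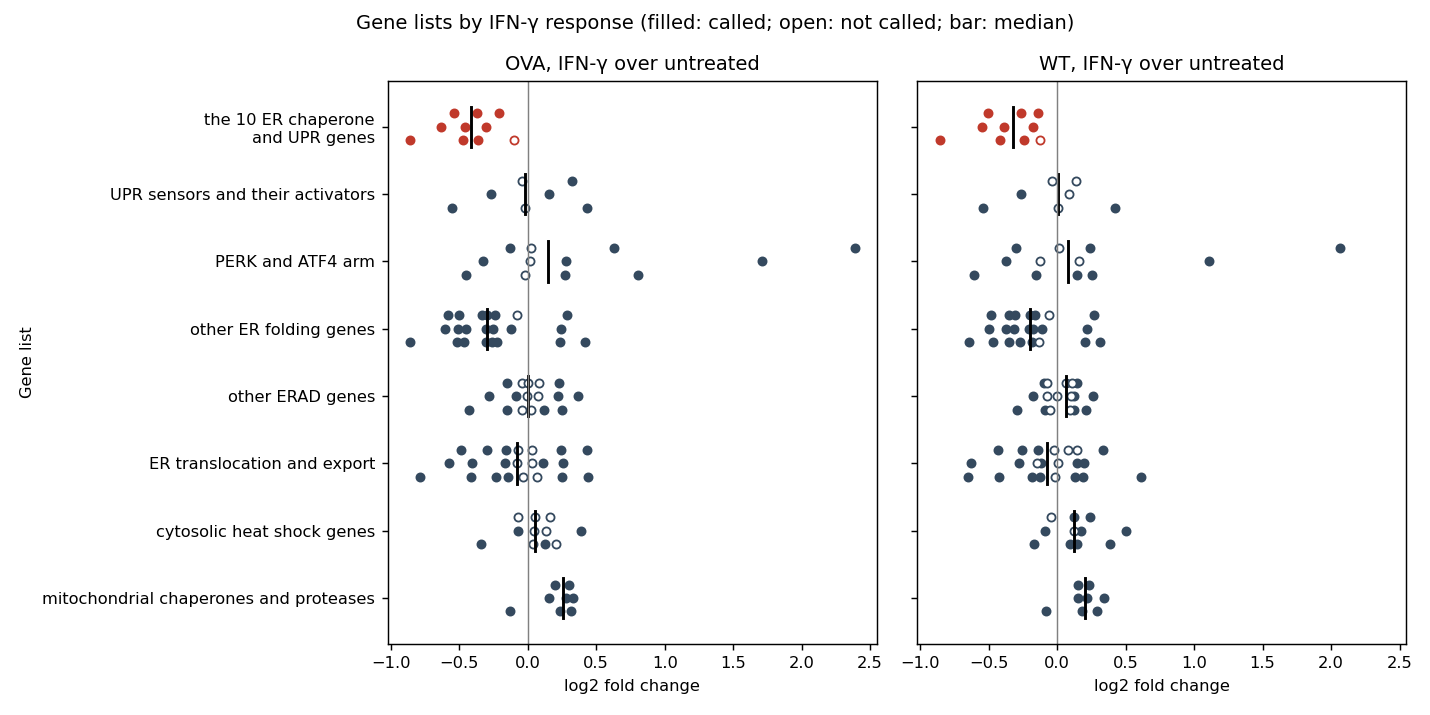
Log2 fold change, IFN-γ over untreated, of each tested gene in 8 lists, in OVA cells (left) and WT cells (right); filled points were called, open points were not, and bars mark medians. The 10 ER chaperone and UPR genes (red, medians −0.41 and −0.33) and the other ER folding genes (medians −0.30 and −0.20) lie mostly left of 0, and the mitochondrial list lies mostly right of it.

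The promoter letters shown above were also counted across the genome. Of 37 genes with an ER stress element, 20 were tested, and 12 were lower and 1 higher in OVA cells, and 13 lower and 1 higher in WT cells, with medians of −0.31 and −0.29. Leaving out Hspa5, Hsp90b1 and Pdia6, 9 of 17 were lower and 1 higher in OVA cells, and 10 of 17 lower and 1 higher in WT cells, with medians of −0.28 and −0.27. The lower ones included the ER genes Calr, Canx, Creld2, Dnajc3, Ero1b and Syvn1, and also Adcy3, Hnrnpa3 and Pan2, in both lines. Without untreated WT replicate 2 the WT call of Pan2 was lost (adjusted p = 0.0846). Zfp57 fell by 0.82 in WT cells (adjusted p = 2.63e-04), with an OVA estimate of −0.13 (adjusted p = 0.522), and the interaction called 0 of the 20. The higher one was Acacb, a carboxylase of fatty acid metabolism, at 1.69 in OVA cells and 1.62 in WT cells. Several of these genes stand in the lists above, so this count overlaps with theirs. Of 10 tested genes with ER stress element II, Herpud1 included, 3 were higher and 4 lower in each line. Of 103 tested genes with a UPR element, 25 were higher and 35 lower in OVA cells, and 29 higher and 34 lower in WT cells. Beside these counts stand 25.9% higher and 22.9% lower of all genes tested in OVA cells, and 24.5% and 19.7% in WT cells.

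**Figure D5:**
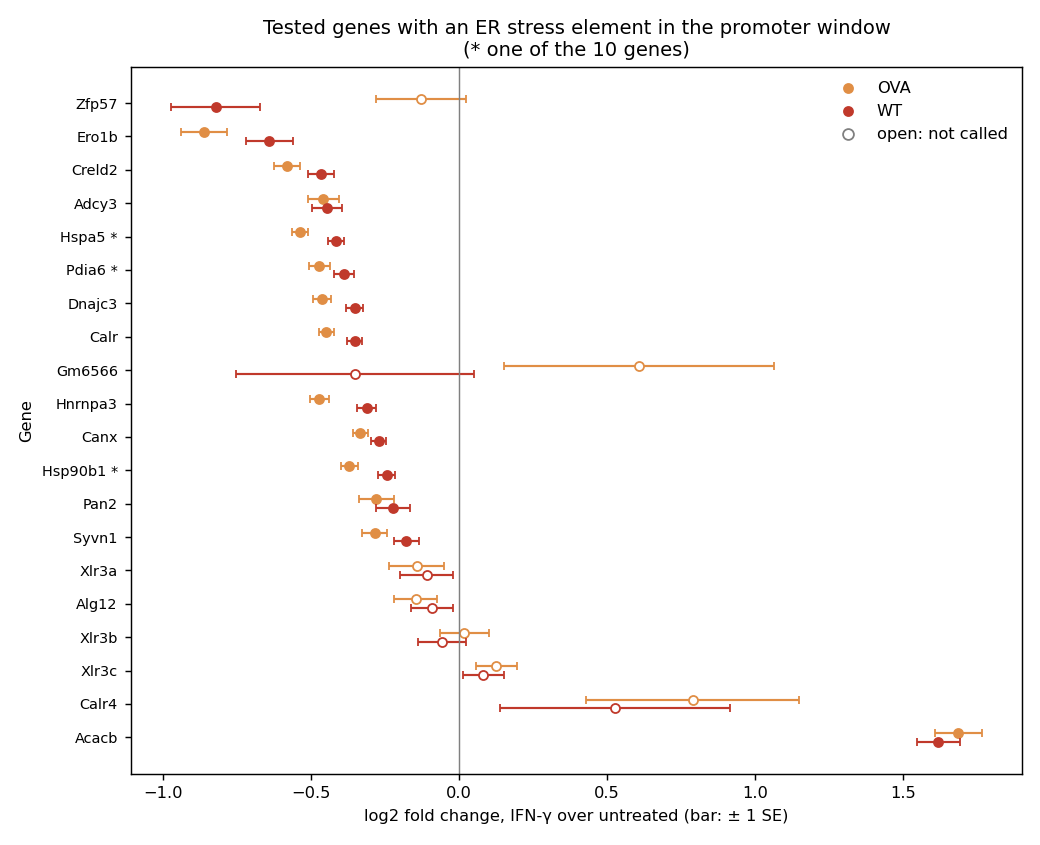
Log2 fold change, IFN-γ over untreated, ± 1 SE, of the 20 tested genes with an ER stress element in the promoter window, in OVA cells (orange) and WT cells (red); asterisks mark Hspa5, Hsp90b1 and Pdia6, and open points were not called. Most points lie between −0.86 and 0, and Acacb stands apart at 1.69 and 1.62.

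Over the 10 samples, Pdia6 had the profile nearest to that of Hspa5 among 10470 genes with a mean of at least 5 CPM. Likeness was the root mean square difference of log2 CPM after centring each gene on its own mean, and was 0.031 for Pdia6. The nearest genes outside the set were Sparc, Cav2, Fkbp9, Aplp2 and St6galnac6, at 0.032 to 0.036. By this measure the ranks of the other genes of the set were 135 for Hyou1, 302 for Pdia4, 347 for Sdf2l1 and 421 for Hsp90b1. Edem1 ranked 1118, Xbp1 1553, Herpud1 3439 and Dnajb9 4372. The measure takes in the size of a change as well as its direction, and the points share their libraries, so it is a description over these 10 samples.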

How the data were processed

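Polyadenylated RNA was sequenced from 10 libraries. The table the authors deposited holds raw counts per Ensembl gene. Per the submitters' processing notes, reads were handled with HISAT2 2.0.5 and featureCounts 1.6.0 on build GRCm39. Annotation release and strand setting were not given in the sources used here, and a gene overlapped on the other strand is therefore uncertain. By GENCODE M21, Pdia6 overlaps Atp6v1c2 (0 to 13 counts) and Herpud1 overlaps Gm15890 (0 to 3 counts), both on the opposite strand. Hsp90b1 overlaps Gm15344 (14 to 51 counts) on the same strand. Tissue is named in the extraction protocol, cell lines everywhere else in the labels.

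Counts were tested with the quasi-likelihood test of edgeR 4.0.16 (R 4.3.3), two-sided, after TMM scaling and the filterByExpr filter, in a single fit of 4 group means, with Benjamini-Hochberg adjustment over 15526 of 77175 entries at 0.05. CPM use TMM factors. Log2 CPM for the likeness measure had a prior count of 2. The labels do not call replicates separate cultures, so p-values measure the spread between these libraries. Replicates differed by more than counting noise (chi-square per degree of freedom 2.09 to 3.75), so none was merged.

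The 10 genes and the gene lists were chosen with earlier results of these data known. Named were all 10 genes, 8 other genes (Ern1, Eif2ak3, Atf6, Atf4, Ddit3, Calr, Canx and Pdia3), per list and line the up to 2 largest called increases and decreases, per list the largest called difference in each other comparison, and the 5 profiles nearest to Hspa5. Named after their values were seen were Trib3, Sdf2, Chac1 in the interaction, Hspa9, and the genes with an ER stress element. Derl3 and Hspa1a were too low to be tested. Alternatives were DESeq2 1.42.0, its size factors in edgeR, limma-voom (limma 3.58.1), a replicate block, no low count filter or one at 1 CPM in 5 samples, fits of only the compared groups, thresholds of 0.01 and of 1.5-fold, and each library left out. Library totals with no scaling factor were added after seeing the data.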

Additional observations from a re-analysis of the deposited data

Results flagged for a closer look

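The 3 results below were picked out because the test of the difference itself, the interaction of line and treatment in edgeR, passed the threshold. All 3 genes belong to the PERK and ATF4 arm.

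Ddit3, the gene of the stress transcription factor CHOP, had 105, 102 and 109 CPM in OVA cells with IFN-γ, against 61.3 and 59.2 CPM in untreated OVA cells. In WT cells it had 85.2, 88.2 and 93.1 CPM with IFN-γ, against 75.6 and 75.2 CPM untreated. It rose in both lines, by 0.81 in OVA cells and by 0.24 in WT cells on the log2 scale, a difference of 0.57 (SE 0.064, adjusted p = 3.72e-04).

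Chac1, which encodes a glutathione-degrading enzyme, had 49.7, 50.2 and 50.6 CPM in OVA cells with IFN-γ against 49.0 and 49.7 CPM in untreated OVA cells, and 41.7, 39.1 and 38.9 CPM in WT cells with IFN-γ against 54.1 and 49.6 CPM in untreated WT cells. It fell by 0.38 on the log2 scale in WT cells, with an OVA estimate of 0.023, and the difference was 0.40 (adjusted p = 0.0184). It was not called without untreated WT replicate 1 (adjusted p = 0.163), treated WT replicate 2 (0.0541), untreated OVA replicate 1 (0.138) or untreated OVA replicate 2 (0.0872).

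Trib3, a pseudokinase gene, had a mean of 75.4 CPM in OVA cells with IFN-γ against 48.7 CPM in untreated OVA cells. In WT cells the means were 76.7 CPM with IFN-γ and 64.4 CPM untreated. The lines were thus near each other with IFN-γ and apart when untreated. Trib3 rose by 0.63 in OVA cells and by 0.25 in WT cells, a difference of 0.38 (adjusted p = 0.0218). It was not called without untreated WT replicate 1 (adjusted p = 0.193), treated WT replicate 2 (0.0589), untreated OVA replicate 1 (0.193), untreated OVA replicate 2 (0.0891) or treated OVA replicate 1 (0.0602).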

How the results depend on the processing

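No called value changed sign. The count of lower genes among the 10 stayed at 9 in OVA cells under each alternative at the 0.05 threshold, and was 8 or 9 in WT cells with single libraries left out. With at least 1.5-fold asked, lower genes came to 2 in OVA cells and 1 in WT cells, and 0 of the 10 were called between lines in either direction or state. All genes called then came to 2335 in OVA cells (7580 without that demand), 2063 in WT cells (6858), 19 for the difference of responses (53), 144 between untreated lines (859) and 249 between treated lines (2229). At an adjusted p below 0.01 the counts of all genes were 21 for the difference of responses, 381 between untreated lines and 1099 between treated lines, and 1 of the 10 genes was higher in untreated OVA cells. That last count was also 1 with DESeq2, its size factors in edgeR, library totals, limma-voom and the replicate block, against 2 in the report, because the Dnajb9 call was lost (adjusted p 0.0504 to 0.186 over these 5). DESeq2 called 518 genes between untreated lines and 1381 between treated lines. With no filter, 284 genes were called for the difference of responses.

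With single libraries left out, the genes called ran from 21 to 107 for the difference of responses (107 without treated WT replicate 3), from 350 to 1012 between untreated lines and from 1431 to 2408 between treated lines, and the higher genes among the 10 in untreated OVA cells from 0 to 2. Library totals moved the split of all calls between treated lines to 1450 higher and 967 lower in OVA cells (988 and 1241 with TMM factors), and of the difference of responses to 14 and 27 (12 and 41). They moved the median of all genes by less than 0.1 on the log2 scale. The fit of only the groups compared gives no value for the difference of responses.

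The replicate numbers gave no sign of pairing: same-numbered libraries had correlations of their deviations from −0.072 to 0.035. Deviations from means of 2 or 3 libraries cannot exclude pairing. The replicate block called 165 genes for the difference of responses. It kept 9 lower genes among the 10 in each line and 0 for the difference of responses, and called Pdia4 between treated lines (adjusted p = 0.0303). Groups of 2 untreated libraries limit the precision, and between the lines the calls of Dnajb9 and Herpud1 (untreated) and of Hspa5 (treated) depended on single libraries.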

Other observations

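Chaperones outside the ER lumen had a different balance of calls with IFN-γ. The mitochondrial HSP70 gene Hspa9 had 641 ± 26.3 CPM in treated OVA cells against 521 ± 1.04 in untreated OVA cells, and 632 ± 9.26 CPM in treated WT cells against 537.5 ± 14.8 in untreated WT cells (SD, n = 3 treated and 2 untreated). Its log2 fold change was 0.30 in OVA cells (adjusted p = 1.30e-06) and 0.23 in WT cells (adjusted p = 2.26e-05). The mitochondrial HSP90 gene Trap1 rose by 0.33 in OVA cells and by 0.34 in WT cells, and the J protein gene Dnaja3 by 0.32 and 0.29. The chaperonin gene Hspd1 was the single lower one, at −0.13 in OVA cells and −0.082 in WT cells, the WT call being lost without untreated WT replicate 1 (adjusted p = 0.195) or treated WT replicate 2 (0.0528). In the cytosol, the HSP70 co-chaperone gene Bag3 rose by 0.39 in both lines and the HSP110 gene Hsph1 fell by 0.34 in OVA cells and by 0.17 in WT cells. Between the lines, the oxidase gene Ero1a was lower in OVA cells, with 254 ± 2.42 CPM in untreated OVA cells against 422 ± 9.12 in untreated WT cells, and 217 ± 1.46 in treated OVA cells against 378 ± 10.7 in treated WT cells (log2 fold change −0.74 untreated and −0.80 treated, adjusted p = 6.33e-10 and 1.04e-11 by edgeR).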
